A study of Rattus norvegicus with 12 samples.

Results

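Cyclic nucleotide phosphodiesterase genes were followed in F11 cells given forskolin. The set held 8 genes, Pde3a, Pde3b, Pde4a, Pde4b, Pde4d, Pde7b, Pde8a and Pde10a, and was taken as every probe that carries one of these names in the scanner files, which gave 10 probes of 41012 on the array. Pde4d had 3 probes and each other gene had 1. Of these, 4 probes of 2 genes, Pde4d and Pde10a, were bright enough to be tested. F11 cells descend from sensory neurons of the rat that were fused to a mouse neuroblastoma line, so mouse transcripts may also bind the rat probes, and how far they did was not tested. After 3 h in medium with 0.5% serum, the cells received 10 µM forskolin, which switches on adenylyl cyclase directly, for 2, 4, 24 or 48 h, with 3 arrays per time and 12 in all. On each array the forskolin RNA (green, Cy3) was set against RNA of unstimulated F11 cells taken after the same 3 h in low serum (red, Cy5), called the reference below. No array held unstimulated cells kept for as long as the forskolin cells, so time in low serum and forskolin cannot be told apart.

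Phosphodiesterases hydrolyse cyclic AMP, cyclic GMP or both and so end the signal that adenylyl cyclase starts. Cells in which cyclic AMP stays high are known to raise the activity of some of these enzymes, through phosphorylation by protein kinase A within minutes and through new transcripts later, which is a negative feedback on the pathway. The Pde4 genes encode cyclic AMP-specific enzymes that rolipram inhibits. The Pde3 enzymes are inhibited by cyclic GMP, Pde7b and Pde8a encode cyclic AMP-specific enzymes that rolipram does not inhibit, and Pde10a encodes an enzyme of both nucleotides that is best known from the striatum.

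Probes are 60-base oligonucleotides, and those printed here are the ones on which the results for Pde4d and Pde10a rest. The brightest Pde4d probe (A_44_P683068, at chr18_random:266188-266247 on the plus strand of rn3) carries, in capitals, the bases that code for a conserved stretch with the histidine and aspartate residues that hold metal ions in the catalytic domain. It is called the catalytic-domain probe here. Of the 41012 probes, 2 hold these bases when any base is allowed at the positions where these 2 probes differ. The other belongs to Pde5a, which encodes a cyclic GMP-specific enzyme and is shown beside it. Other codons for the same residues were not searched. The Pde10a probe (A_44_P200116) lies at chr1:46396594-46396651 on the minus strand of rn3. Its sequence, the Pde4d sequence and the Pde5a sequence are these:
Pde4d catalytic-domain probe: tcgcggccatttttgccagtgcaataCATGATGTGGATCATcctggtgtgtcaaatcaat
Pde5a probe: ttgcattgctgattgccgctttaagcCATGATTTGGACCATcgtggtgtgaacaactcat
Pde10a probe: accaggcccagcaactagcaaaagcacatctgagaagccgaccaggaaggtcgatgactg
The second Pde4d probe (A_43_P11785, called the downstream probe) lies further along the same unplaced sequence, at chr18_random:268765-268824 of rn3. The third (A_44_P311334, the chromosome 2 probe) lies at chr2:41232975-41233034 of rn3 and shares a run of 54 bases with a probe to an expressed tag, CB803293. The catalytic-domain, downstream and Pde10a probes share no run of 16 bases with another probe of the array. Whether a probe lies in an exon or an untranslated region was not annotated here.

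Of 43379 non-control spots, an array had 19889 to 21973 well above background with forskolin and 19504 to 23285 with reference RNA. Green signals were lower than red ones throughout, with median net signals (spot mean minus local background) of 13.5 to 23.6 against 29.4 to 41.2 scanner units, so net signals of the channels are comparable only after the loess step. A change is the log2 ratio of forskolin to reference, taken after normexp (offset 50) and loess. A call is a Benjamini-Hochberg adjusted p under 0.05 in limma over 20630 tested probes, whose median change was -0.02 at each time. Forskolin RNA was green on all 12 arrays, so a dye effect of a probe stays in each change against the reference and cancels between times. The arrays lay on 3 slides with the same time at the same slide position, so position and time cannot be told apart, and each array's value is also its within-slide value. The number of arrays limits the precision, and since nothing says that replicates came from separate cultures, p-values measure only the spread between arrays, which may be technical. All 8 neuronal markers checked (Tubb3, Uchl1, Stmn2, Snap25, Elavl4, Prph, Nefl and Map1b) were well above background in both channels of all 12 arrays, against 1 of 6 glial markers (Sox10), 2 of 5 fibroblast markers (Col1a1 and Col1a2) and 0 of 4 leukocyte markers.

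Pde4d rose within 2 h of forskolin and was highest at 4 h. On the catalytic-domain probe the log2 changes were 0.86, 0.90 and 1.097 on the 2 h arrays, 1.74, 1.91 and 1.94 on the 4 h arrays, 1.24, 1.23 and 1.25 on the 24 h arrays, and 0.64, 1.21 and 1.16 on the 48 h arrays. The 3 arrays at 4 h lay above all 9 arrays of the other times, and all 12 arrays lay above the reference. At 2 h the mean change was 1.94-fold (log2 0.95 ± 0.13, SD, n = 3, limma adjusted p = 5.6e-06). It was 3.64-fold at 4 h (1.86 ± 0.11, 1.3e-09), 2.37-fold after 24 h (1.24 ± 0.01, 3.8e-08) and 2.00-fold after 48 h (1.00 ± 0.32, 2.3e-07). Both channels were well above background on all 12 arrays. In net signal, the forskolin channel of this probe held 161, 187 and 225 units at 4 h, against 94.4, 81.8 and 98.9 units in the reference channel. Array 1 at 48 h, the lowest of that time, held 74.4 units with forskolin and 110.3 units in the reference channel, the highest reference value of the 12, and whether that reading set its low change was not tested. With Agilent's own processed signals in place of normexp and loess, the mean log2 changes were 2.00, 3.07, 2.26 and 2.04 at the 4 times, and with median centring of every array in place of loess they were 0.53, 1.21, 0.79 and 0.58. With median centring, though, the median of all tested probes lay at -0.54, -0.55, -0.42 and -0.44, and centred on the tested probes instead the changes were 1.07, 1.76, 1.22 and 1.02. The size of the rise thus moved with the processing, whereas its direction and call against the reference held under each of the 12 alternatives in which this probe was tested, and with each array left out in turn.

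The other Pde4d probes were dimmer, and the same peak at 4 h was present on each. The downstream probe gave 0.57, 0.28 and 0.42 on the 2 h arrays, 0.99, 1.13 and 1.05 at 4 h, 0.42, 0.42 and 0.48 after 24 h and 0.06, 0.08 and 0.30 at 48 h. The 4 h arrays again lay above all others, and no array lay below the reference. Its means were 0.42 ± 0.15 (adjusted p = 1.9e-04), 1.06 ± 0.07 (7.0e-09), 0.44 ± 0.04 (2.0e-05) and 0.15 ± 0.13 (0.044; SD, n = 3 each, limma). The forskolin channel was well above background on 11 arrays and the reference channel on 8, and at 48 h on only 2 and 1 arrays. The 48 h call on this probe was lost under 5 of 10 alternatives (offset 0, processed signals, median centring, the deposited log2 values and no filter) and with 7 of 12 arrays left out (without 24 h replicate 1, 2 or 3, 2 h replicate 3, 4 h replicate 3, or 48 h replicate 2 or 3), the largest loss being without 48 h replicate 3 (0.07, adjusted p = 0.38).

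The chromosome 2 probe gave 0.48, 0.10 and 0.08 on the 2 h arrays, 1.09, 0.91 and 0.88 at 4 h, 0.11, 0.27 and 0.00 after 24 h and 0.10, -0.08 and -0.07 at 48 h. Its 4 h arrays were set apart from all others, while at 24 and 48 h the arrays lay at or close to the reference. At 4 h the mean was 0.96 ± 0.12 (adjusted p = 2.0e-07), although only 1 of the 3 arrays had this probe well above background in the reference channel. The probe passed the filter only through the forskolin channel at 2 and 4 h, so its calls at those times are not read as support. The same holds for its steps from 2 to 4 h and from 4 to 24 h. At 2 h the mean was 0.22 ± 0.23 (0.043), a call that rests on replicate 1: without it the change was 0.09 (adjusted p = 0.38). That call was also lost, at adjusted p-values of 0.050 to 0.054, without 2 h replicate 2, 4 h replicate 2 or 3, 24 h replicate 1 or 48 h replicate 2, and with offset 0, median centring or no filter (0.059 to 0.079). At 24 h the reference was well above background on no array, and the mean of 0.13 ± 0.13 did not pass the test (adjusted p = 0.18) but was called with processed signals (1.05, 0.0048) and when centred on the tested probes (0.59). At 48 h the mean was -0.02 ± 0.10 (adjusted p = 0.86), or 0.41 when centred on the tested probes (8.7e-04).

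**Figure D1:**
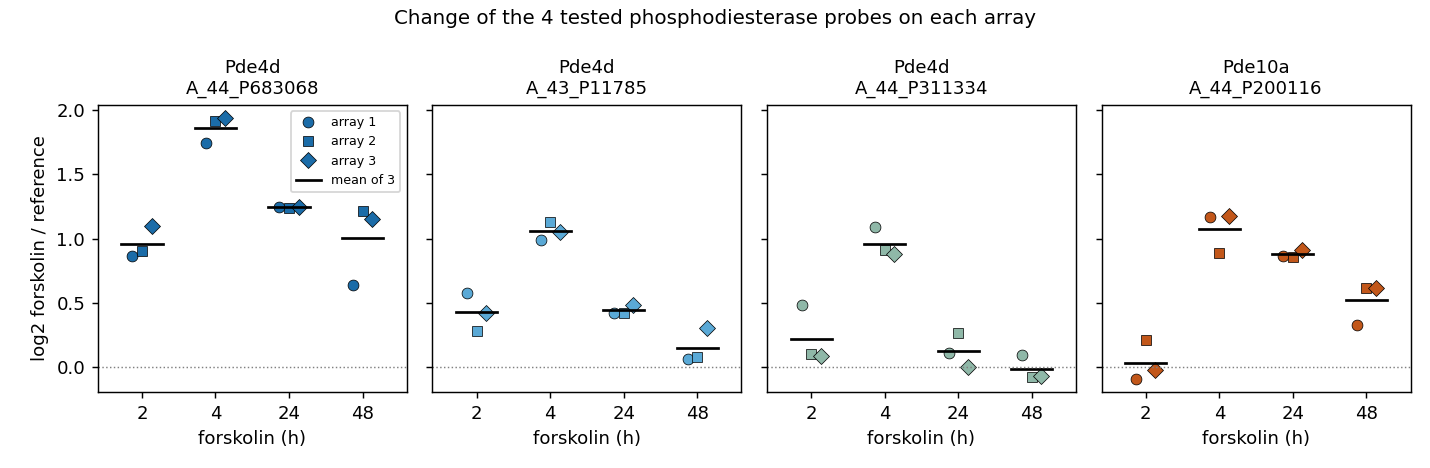
Log2 ratio of forskolin over reference (y axis) for the 4 tested probes by hours of forskolin (x axis). Each symbol is an array, the bar is the mean of 3 arrays and the dotted line marks no change. The 4 h arrays sit at 1.74 to 1.94 on the catalytic-domain probe of Pde4d, and on all 3 Pde4d probes the 4 h arrays lie above every other array, whereas Pde10a has its 4 h and 24 h arrays side by side.

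The 3 Pde4d probes thus shared the peak at 4 h, but not the size of the change or its later course. The chromosome 2 probe passed the filter only through the forskolin channel at 2 and 4 h, so its peak is not read as support. At 24 and 48 h the means were 1.24 and 1.00 on the catalytic-domain probe and 0.44 and 0.15 on the downstream probe. On the chromosome 2 probe they were 0.13 and -0.02. On the same arrays, the downstream probe's change minus that of the catalytic-domain probe was -0.53 ± 0.21, -0.81 ± 0.08, -0.80 ± 0.03 and -0.85 ± 0.28 at the 4 times in order (SD, n = 3). For the chromosome 2 probe the same difference was -0.73 ± 0.32, -0.90 ± 0.22, -1.12 ± 0.14 and -1.02 ± 0.41. The probes' order by size of change was also their order by brightness, the median net signal over 12 arrays being 113 units in the forskolin channel and 80.5 in the reference channel for the catalytic-domain probe, 38.0 and 42.1 for the downstream probe, and 24.9 and 35.3 for the chromosome 2 probe. The offset of 50 exceeds the median net signals of both dimmer probes. With Agilent's processed signals, which have no such offset, the 4 h changes of the catalytic-domain, downstream and chromosome 2 probes were 3.07, 2.75 and 3.07. With a normexp offset of 0 they were 2.60, 1.94 and 2.01. Their 48 h changes were 2.04, 0.61 and -0.09 with processed signals, and 1.59, 0.36 and -0.08 with offset 0. At 48 h the chromosome 2 probe was well above background on only 2 of 3 arrays in each channel. For the downstream probe at 48 h this held on 2 arrays with forskolin and on 1 in the reference channel. Neither the part of the offset in these gaps nor whether the probes read different Pde4d transcripts was tested.

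Pde10a did not differ detectably from the reference at 2 h and was higher at 4, 24 and 48 h. Its log2 changes were -0.10, 0.21 and -0.03 on the 2 h arrays, 1.17, 0.89 and 1.18 at 4 h, 0.86, 0.86 and 0.91 after 24 h and 0.33, 0.62 and 0.61 at 48 h. The 2 h arrays fell on both sides of the reference, the 4 h and 24 h arrays overlapped, and each 48 h array was below every 4 h and 24 h array. The mean at 2 h was 1.02-fold (0.03 ± 0.16, SD, n = 3, limma adjusted p = 0.79). Later means were 2.11-fold at 4 h (1.08 ± 0.16, 4.3e-08), 1.84-fold at 24 h (0.88 ± 0.03, 2.0e-07) and 1.43-fold at 48 h (0.52 ± 0.17, 2.7e-05). The channels were well above background on 11 arrays each. Net forskolin signals were 11.98, 18.9 and 22.1 units at 2 h, against 47.5, 26.4 and 49.7 units in the reference channel, and 68.5, 66.9 and 84.5 units at 4 h, against 41.2, 56.4 and 48.9. The 2 h forskolin signals thus sat near the floor of detection, the lowest percentile of detected green probes being 13.5 to 17.2 units on those arrays. With Agilent's processed signals Pde10a changed by -0.09, 2.49, 2.09 and 1.55 at the 4 times, so the order of the times was the same at larger sizes. Centring on the tested probes gave 0.56 at 2 h (adjusted p = 7.7e-06), so the lack of a call at that time depends on the scaling. Array 1 at 48 h was again the lowest of its time, with the highest reference signal of the 12 arrays (81.4 units).

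Set side by side, Pde4d was already called higher at 2 h by its catalytic-domain probe and Pde10a was not called. When centred on the tested probes, however, Pde10a was called higher at 2 h as well (0.56). The catalytic-domain probe's change minus that of Pde10a was 0.92 ± 0.22, 0.79 ± 0.23, 0.37 ± 0.02 and 0.48 ± 0.15 at the 4 times in order (SD, n = 3), and lay above 0 on all 12 arrays. For the downstream probe it was 0.395 ± 0.30, -0.02 ± 0.23, -0.43 ± 0.01 and -0.37 ± 0.14. For the chromosome 2 probe it was 0.19 ± 0.35, -0.12 ± 0.16, -0.75 ± 0.16 and -0.54 ± 0.26. Which gene changed more at 4, 24 and 48 h thus depended on the Pde4d probe. Whether this difference between the genes changed with time was not tested.

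Counted by probe, 3 of the 4 tested probes were called at 2 h, all 4 at 4 h, and 3 at each of the later times, and each call was higher with forskolin. Over all tested probes, 27.3%, 48.8%, 51.8% and 55.9% were called at these times, and 10.7%, 21%, 24.2% and 26.5% were called higher. Of the called probes, 39.1%, 42.9%, 46.8% and 47.4% were thus higher, against 1.84%, 2.61%, 4.30% and 5.49% with median centring, and 49.99% at 2 h when centred on the tested probes. A rise of at least 2-fold at 4 h was called on 3 of the 4 probes, against 0.485% of all tested probes. The chromosome 2 probe passed the filter only through the forskolin channel at 2 and 4 h, and 6 of the 10 probes passed it nowhere, so these counts describe the bright probes and not the 8 genes.

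Between successive times the dye effect cancels. From 2 to 4 h all 4 probes rose, against 14.7% of all tested probes called and 5.59% called higher. The rise was 0.91 ± 0.12 (SE) on the catalytic-domain probe (limma adjusted p = 1.8e-04), 0.63 ± 0.08 on the downstream probe (1.4e-04), 0.74 ± 0.11 on the chromosome 2 probe (3.2e-04) and 1.05 ± 0.10 for Pde10a (1.0e-05). With median centring the downstream probe's rise was 0.39 and was not called (adjusted p = 0.12). From 4 to 24 h the 3 Pde4d probes fell, by 0.62 ± 0.12 (0.0010), 0.61 ± 0.08 (4.0e-05) and 0.84 ± 0.11 (2.5e-05) in the same order, whereas the difference for Pde10a was -0.20 ± 0.10 and did not pass the test (0.14) but did without 4 h replicate 2 (-0.30, 0.041) or with no background correction (0.036). With median centring the catalytic-domain probe's difference was -0.42 and was not called (0.075). Over all tested probes 38% were called in this step and 18.1% were called lower. Whether the step differed between Pde4d and Pde10a was not tested. From 24 to 48 h Pde10a fell by 0.36 ± 0.10 (0.031) and the downstream Pde4d probe by 0.30 ± 0.08 (0.028), against 13.8% of all tested probes called and 6.53% called lower, and the catalytic-domain and chromosome 2 probes gave -0.24 ± 0.12 (0.23) and -0.14 ± 0.11 (0.45). Both of these late calls were lost without any of the 24 h replicates 1, 2 and 3 or without 48 h replicate 1, with Pde10a at -0.26 to -0.37 and the downstream probe at -0.25 to -0.31, and the downstream probe also without 48 h replicate 2 (-0.26). Both were also lost with offset 0, processed signals, median centring and centring on the tested probes, and the downstream one with no filter (adjusted p = 0.052). By the F test over the 4 times all 4 probes were called, against 52.4% of all tested probes. The chromosome 2 probe passed the filter only through the forskolin channel at 2 and 4 h, so its calls here are not read as support.

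Pde3a, Pde4a, Pde4b, Pde7b and Pde8a never reached the level called well above background, in either channel of any of the 12 arrays. Their net forskolin signals were 5.98 to 19.4 units for Pde3a, 5.89 to 19.4 for Pde4a, 8.31 to 16.8 for Pde4b, 4.84 to 14.2 for Pde7b and 5.78 to 18.5 for Pde8a. Their reference signals were 3.11 to 22.8, 13.5 to 28.5, -1.48 to 29.5, 0.97 to 24.6 and 3.26 to 36.0 units in the same order. Pde3b, whose product is known from fat cells and the liver for its activation by insulin, was well above background on 2 arrays with forskolin (net signals of 10.7 to 25.0 units) and on 4 in the reference channel (17.5 to 49.4 units), and never on all 3 arrays of a time. These signals give no fold change. They do not show that the genes were off, since a probe of 1 position misses transcripts that end or begin elsewhere. When all 41011 probes with values were fitted with no filter, none of these 6 genes was called in any comparison (smallest adjusted p = 0.079, for Pde3a at 48 h, with an unadjusted p of 0.026).

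**Figure D2:**
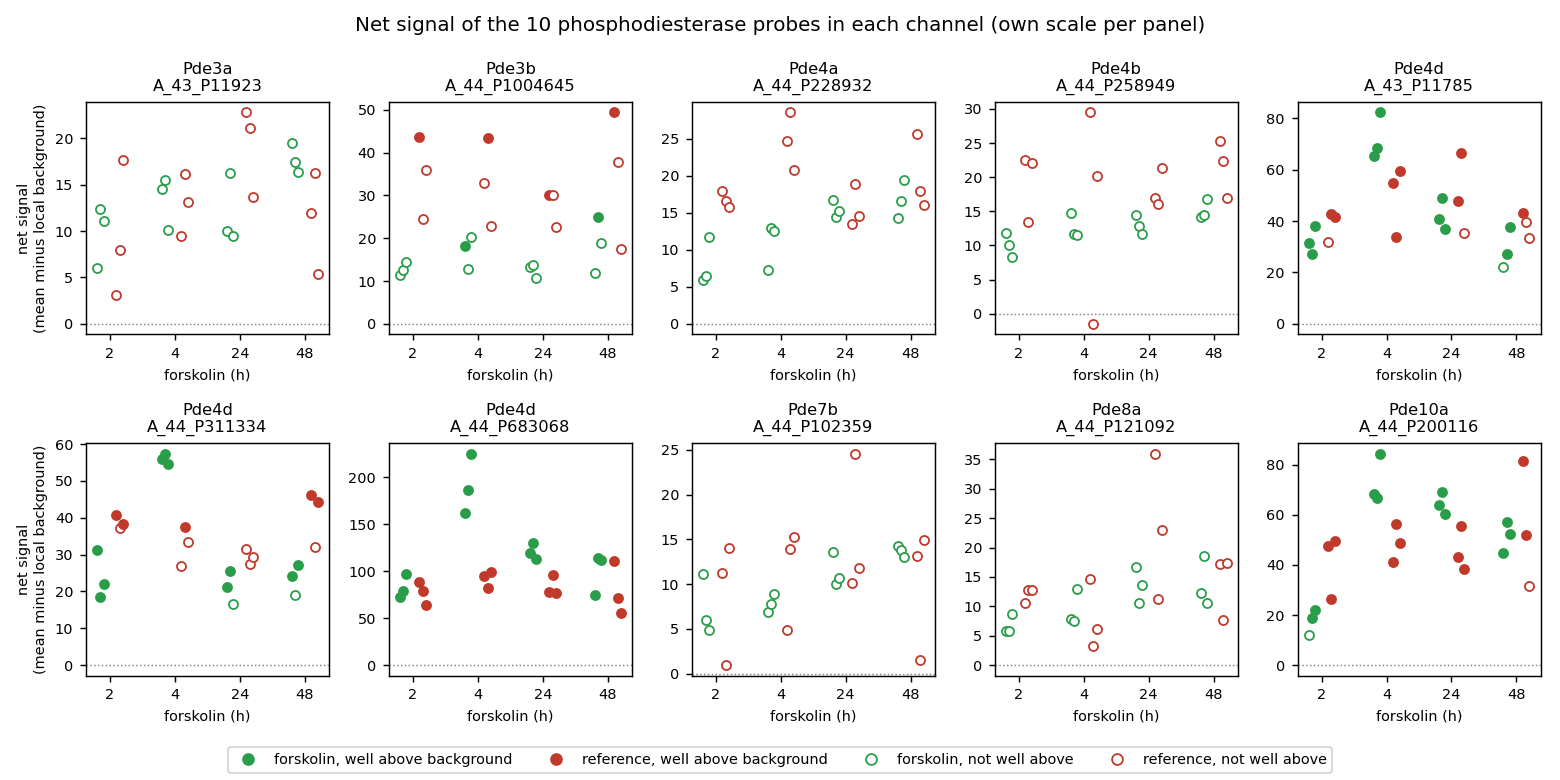
Net signal (spot mean minus local background, in scanner units, own scale per panel) of all 10 probes by hours of forskolin, with forskolin (green) left of the reference (red). Filled points were well above background and open points were not. The catalytic-domain probe of Pde4d reaches 225 units with forskolin at 4 h, and the panels of Pde3a, Pde4a, Pde4b, Pde7b and Pde8a hold open points only.

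A further probe, described in the files as similar to PDE4D but named only by the accession-like name XM_226802, fell outside the gene-name rule. It was well above background with forskolin on all 3 arrays at 2, 4 and 24 h and on none at 48 h, and in the reference channel on no array. As a bound, its change was at least 1.16-fold at 2 h (limma adjusted p = 0.029), 1.26-fold at 4 h (6.7e-04) and 1.23-fold at 24 h (0.0011). The 2 h bound equals the mean log2 change of 0.22. This probe passed the filter only through the forskolin channel, so its calls are not read as support.

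Changes of the other phosphodiesterase genes went in both directions. The list held 16 genes, of which 15 were on the array and 7 were tested. At 2, 4, 24 and 48 h, 1, 1, 2 and 3 of the 7 were called higher and 3, 2, 3 and 3 lower, with median changes of -0.04, -0.01, -0.07 and 0.02. Over all tested probes 16.6%, 27.9%, 27.6% and 29.4% were called lower, beside the shares called higher given above. Pde5a was higher by 0.52 ± 0.21 at 4 h (0.28, 0.61 and 0.67 on the 3 arrays, limma adjusted p = 2.2e-04), which median centring left at 0.18 without a call, and by 0.50 ± 0.15 at 48 h (2.1e-04). A probe with the name of an Ensembl transcript, described as phosphodiesterase 5 isoform A1, gave 0.49 ± 0.10 at 4 h (4.2e-06) and 0.34 ± 0.08 at 48 h (8.0e-05). Pde9a, which encodes a cyclic GMP-specific enzyme of high affinity, was lower at all 4 times, with -0.61, -0.64 and -0.70 on the 4 h arrays (-0.65 ± 0.04, 6.9e-08, or -1.37 with median centring). Pde7a, which encodes a cyclic AMP-specific enzyme related to that of Pde7b, was lower by 0.39 ± 0.10 at 24 h (5.0e-06) and by 0.40 ± 0.03 at 48 h (3.4e-06, or -1.16 with median centring). Pde6d, whose product is better known as a carrier of prenylated proteins than as a phosphodiesterase subunit, was lower at 4 h (-0.43 ± 0.03, 3.6e-04) and higher at 24 h (0.51 ± 0.11, 7.8e-05) and 48 h (0.53 ± 0.29, 4.4e-05), but its 48 h change turned to -0.46 with median centring and to -0.02 with centring on the tested probes. Pde1b (-0.39 ± 0.07 at 48 h, 1.0e-05) and Pde1c (0.21 ± 0.04 at 48 h, 8.3e-04), genes of calmodulin-activated enzymes, and Pde4c, listed under the older name Dpde1 and called at no time, completed the tested genes.

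**Figure D3:**
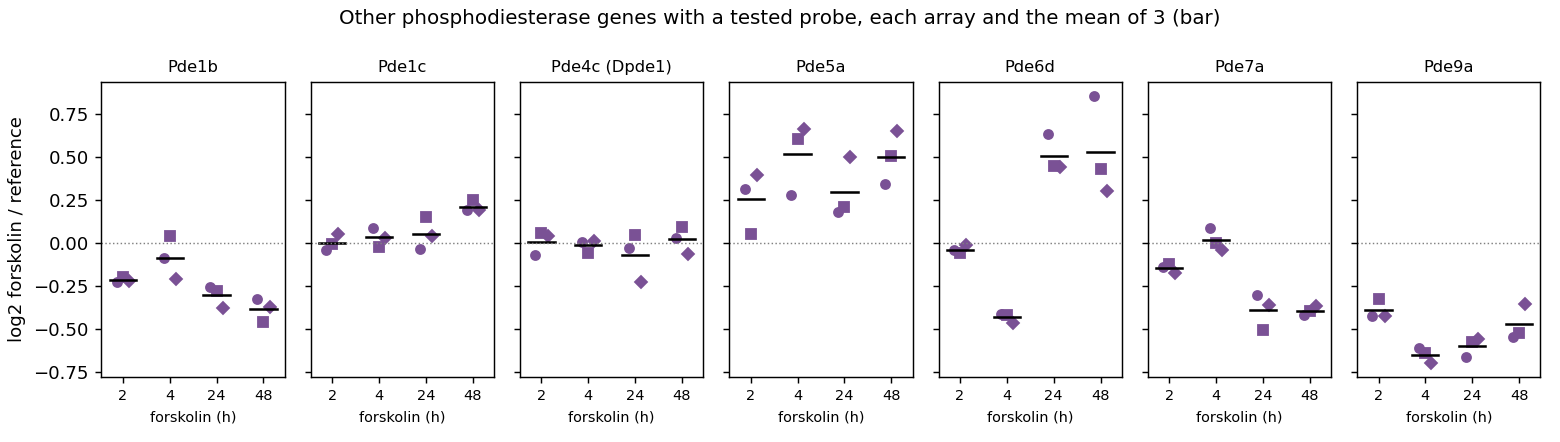
Log2 ratio of forskolin over reference for the 7 other phosphodiesterase genes with a tested probe, by hours of forskolin. Symbols are arrays and bars are means of 3. Pde5a lies above 0 and Pde9a below 0 on all 12 arrays, and the Pde9a mean at 4 h is -0.65.

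Genes that act beside phosphodiesterases in the pathway were taken from lists. Their counts stand against 10.7%, 21%, 24.2% and 26.5% of all tested probes called higher and 16.6%, 27.9%, 27.6% and 29.4% called lower at 2, 4, 24 and 48 h, with a median near -0.02. Among 5 tested adenylyl cyclase genes of 9, which encode the enzymes that make cyclic AMP, 0, 1, 2 and 4 were called higher and 1, 1, 0 and 0 lower at 2, 4, 24 and 48 h (medians 0.07, 0.03, 0.11 and 0.22), where all tested probes had 26.5% higher and 29.4% lower at 48 h. Adcy6, a calcium-inhibited cyclase, was close to the reference at 4 h (0.01 ± 0.04) and 2.21-fold higher at 48 h (1.15 ± 0.09, limma adjusted p = 1.4e-10), but the 48 h change was 0.32 with median centring and 0.76 when centred on the tested probes, both called. Adcy5, its nearest relative, reached 0.47 ± 0.02 at 48 h (1.4e-07), or 0.10 with median centring, which was not called. Adcy9 was lower at 4 h (-0.37 ± 0.12, 6.3e-05) and higher at 48 h (0.22 ± 0.09, 0.0027). Adcy3, known from olfactory neurons, was at least 1.13-fold higher at 48 h (0.027), a call lost without any of the 48 h replicates 1, 2 and 3 (0.14 to 0.19) and with median centring (0.17, adjusted p = 0.061). To the digits shown, this bound is also the measured mean change. Adcy3 passed the filter only through the forskolin channel at 48 h, so that call is not read as support.

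Among 7 tested genes of 9 for protein kinase A subunits and inhibitors, 1, 2, 1 and 2 were called higher and 1, 1, 2 and 3 lower (medians -0.02, 0.05, -0.09 and -0.08). At 48 h, 26.5% of all tested probes were called higher and 29.4% lower. Prkar1a, a regulatory subunit gene, was higher at 24 h by 0.86 ± 0.08 (2.1e-09), a direction that flipped to -0.48 with median centring and to -0.05 with centring on the tested probes. A second Prkar1a probe gave 1.16 at 24 h. Prkacb, a catalytic subunit gene, was lower at 4 h by 0.67 ± 0.05 (4.2e-07, or -1.56 with median centring), with -0.23 on its second probe. Prkar2b was lower at 48 h by 0.38 ± 0.03 (1.8e-05, or -0.97 with median centring). Pkig, a protein kinase inhibitor gene, was higher at 4 h by 0.28 ± 0.09 (2.6e-04) and lay at -0.30 with median centring.

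Among 11 tested genes of 12 for anchors and partners of phosphodiesterases, 2, 2, 5 and 7 were called higher and 2 lower at each time (medians 0.01, 0.01, 0.12 and 0.21), against 10.7%, 21%, 24.2% and 26.5% of all tested probes higher at these times. The counts include Pde4dip, called higher at 24 and 48 h, and Akap7, called higher at 48 h. Both passed the filter only through the forskolin channel at 24 and 48 h, so their calls are not read as support. Akap6, whose product holds Pde4d and protein kinase A together in heart muscle, was higher at 48 h by 0.76 ± 0.18 (1.3e-07, or 1.61 with processed signals) and did not differ detectably at 4 h (-0.04 ± 0.11, 0.65). Akap5, a synaptic anchor of protein kinase A, was lower at 24 h by 0.73 ± 0.03 (1.9e-07, or -1.94 with processed signals). Akap9 (0.72 ± 0.09 at 24 h, 2.5e-06) and Akap12 (0.54 ± 0.24 at 48 h, 1.4e-04) were higher, but were at -0.20 and -0.27 with median centring. Centred on the tested probes, Akap12 was at 0.17 without a call. Other Akap9 probes gave 0.50, 0.28 and -0.10 at 24 h, of which only the last was not called.

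Among 6 tested genes of 9 for other effectors and export of cyclic AMP, 1, 0, 3 and 4 were called higher and 2, 2, 2 and 1 lower (medians 0.04, 0.02, 0.18 and 0.17), against 26.5% of all tested probes higher and 29.4% lower at 48 h. Abcc4, a pump that exports cyclic AMP, was higher at 24 h by 0.51 ± 0.11 (6.7e-05, or 1.19 with processed signals). Rapgef3, the exchange factor Epac1, was at least 1.33-fold higher at 24 h (8.5e-05) and 1.27-fold at 48 h (6.6e-05), with the reference well above background on no array of any time. To the digits shown, the 24 h bound is also the measured mean change. Rapgef3 passed the filter only through the forskolin channel at 24 and 48 h, so its calls there are not read as support. The channel genes Hcn3 (-0.62 ± 0.10 at 2 h, 3.1e-06) and Hcn2 (-0.51 ± 0.03 at 4 h, 2.2e-07) were lower, or -1.38 and -1.70 with median centring, while second probes gave -0.12 for Hcn3 at 2 h and -0.07 for Hcn2 at 4 h.

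All 9 feedback genes outside the phosphodiesterases were called higher at 2 h, and 6, 4 and 4 of 9 were called higher and 1, 1 and 3 lower at 4, 24 and 48 h (medians 2.04, 2.55, 0.11 and 0.13), beside 10.7% of all tested probes higher at 2 h and 21% at 4 h. The list was chosen with earlier results of these arrays known, so its direction is no independent evidence. Rgs2, which dampens G protein signalling, was 15.1-fold higher at 4 h (3.92 ± 0.01, 5.5e-16) and 1.09-fold higher at 24 h (0.13 ± 0.05, 0.028). Sik1, a kinase that holds CREB coactivators out of the nucleus, was 11.1-fold higher at 4 h (3.47 ± 0.16, 1.4e-12) and 2.52-fold at 48 h (1.33 ± 0.08, 8.8e-09). Nr4a3, an orphan nuclear receptor gene, was 9.83-fold higher at 4 h (3.30 ± 0.13, 1.7e-13) and lay at -0.09 ± 0.07 at 24 h (0.28). Crem, whose intronic promoter yields the repressor ICER, was 9.16-fold higher at 4 h (3.20 ± 0.05, 3.3e-13) and 1.55-fold at 48 h (0.63 ± 0.07, 1.8e-06). Other probes gave 2.23 for Crem and 2.58 and 0.16 for Nr4a3 at 4 h. At 4 h the other feedback genes lay at 2.55 for Nr4a1, 0.85 for Dusp1, 0.06 for Fos, -0.07 for Per1 and -0.28 for Junb. With median centring the 4 h changes of Rgs2, Sik1, Nr4a3 and Crem were 2.71, 2.35, 2.24 and 2.16.

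**Figure D4:**
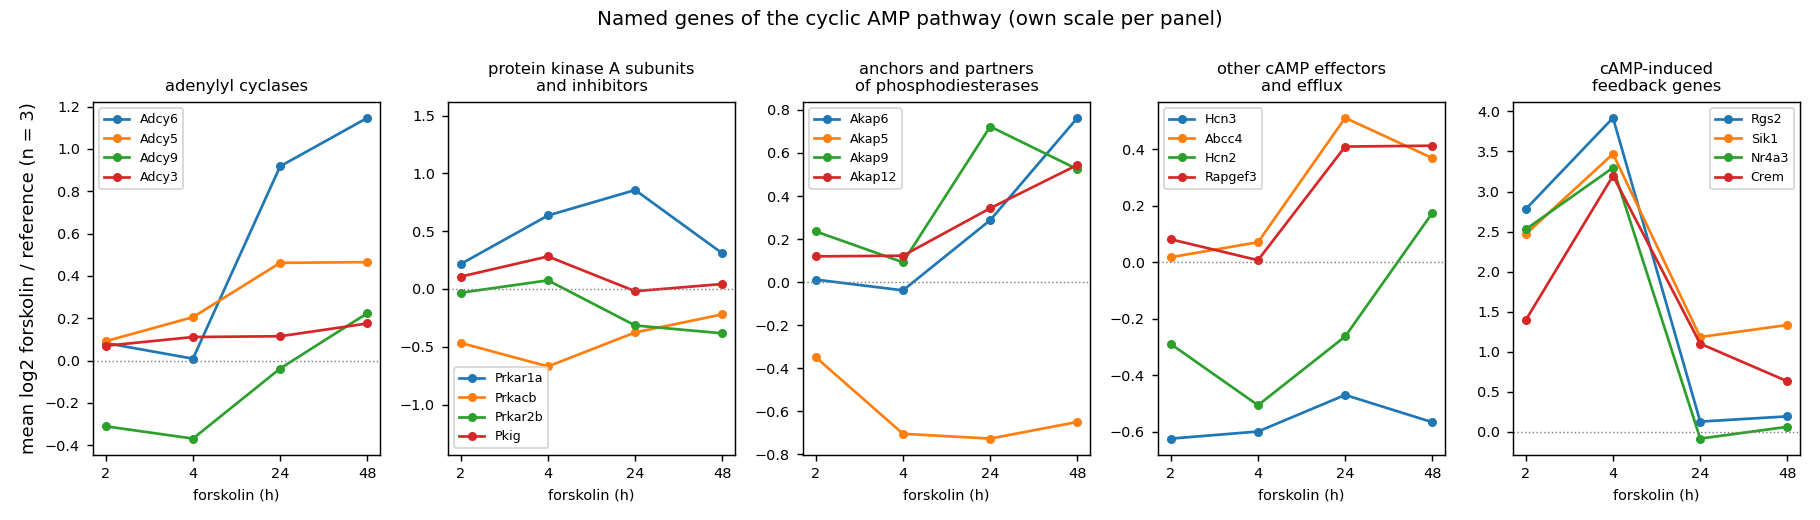
Mean log2 ratio of forskolin over reference (n = 3 arrays, own scale per panel) by hours of forskolin for the named genes of 5 lists of the cyclic AMP pathway. The 4 feedback genes shown peak at 4 h at 3.20 to 3.92, and Adcy6 stands at 0.01 at 4 h and at 1.15 at 48 h.

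The genes whose changes lay closest to those of the members were found by the root mean square difference of log2 ratios over the 12 arrays, among 9320 genes with a symbol. For the catalytic-domain probe of Pde4d they were Ier3 (0.22), a stress-response gene with means of 1.04, 2.12, 1.27 and 1.00, then Ets2 (0.33), Emx2 (0.36), Arl4a (0.36) and Cebpb (0.44), which include the transcription factor genes Ets2, Emx2 and Cebpb. For Pde10a they were Cited1 (0.20), a coactivator gene with means of 0.28, 1.12, 1.05 and 0.36, then Etv2 (0.20), Csrp1 (0.21), Nabp1 (0.24) and Arhgap18 (0.24).

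Promoter sequence was searched because cyclic AMP response elements lie near the start of many genes that respond to forskolin. RefSeq promoters of the GRCr8 build, each from 250 bases before to 50 after a start, were matched for 6 of the 8 genes, with 15 promoters in all and none for Pde3b and Pde7b. The full palindrome TGACGTCA was in 0 of the 15, and in 1.83% of 33469 promoters of all genes. Its core, TGACG or its reverse complement CGTCA, which every full palindrome also holds on both strands, was in 6 of the 15 (40%), and in 21.2% of all promoters. These were 2 of 5 promoters of Pde4d, 1 of 2 of Pde10a, 2 of 4 of Pde4a and the single one of Pde8a, so genes below detection held it too. The feedback genes had 9 promoters, of which 3 were of Crem, with none for Nr4a3 and Fos. Of the 9, 3 held the full palindrome (33.3%), 2 of them of Crem, and 8 the core (88.9%). The stretches of Pde4d and Pde10a with the core in capitals are shown, with 1 Crem promoter that holds the full palindrome for comparison. They lie at chr2:42592503-42592574 and chr2:42767583-42767616 (plus strand), chr1:54765753-54765862 (minus strand) and chr17:58984726-58984763 (plus strand) of GRCr8, in the order given.
Pde4d promoter 3: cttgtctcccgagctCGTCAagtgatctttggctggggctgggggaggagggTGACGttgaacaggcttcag
Pde4d promoter 4: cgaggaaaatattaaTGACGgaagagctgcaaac
Pde10a promoter 2: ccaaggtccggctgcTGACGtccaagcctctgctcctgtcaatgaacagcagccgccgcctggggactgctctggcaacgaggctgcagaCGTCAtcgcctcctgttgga
Crem promoter 2: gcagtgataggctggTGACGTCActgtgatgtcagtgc
Counted from the start, the matches begin at -231 and -194 in Pde4d promoter 3, at -19 in Pde4d promoter 4, and at -179 and -104 in Pde10a promoter 2. A match is a string of letters and not a measured site, and the arrays do not show which start was used.

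**Figure D5:**
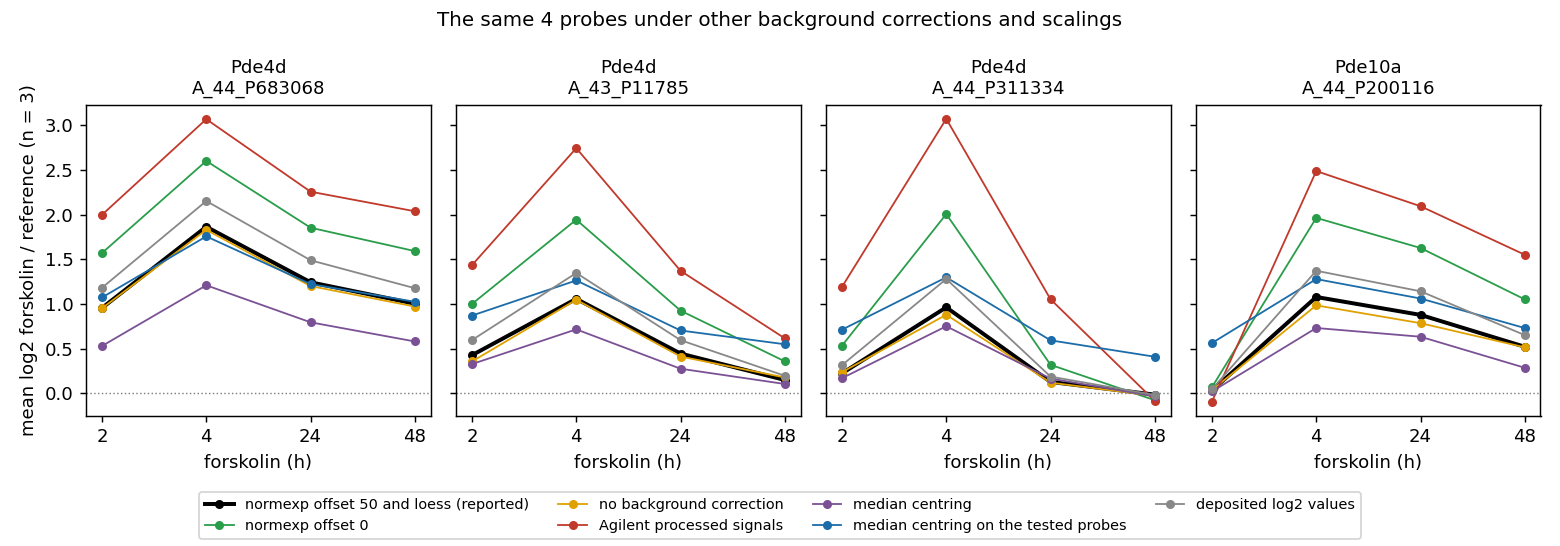
Mean log2 ratio of forskolin over reference (n = 3 arrays) of the 4 tested probes by hours of forskolin, under the reported processing (thick black line) and 6 alternatives. The peak at 4 h is present on each line of each panel, with heights of 1.21 to 3.07 on the catalytic-domain probe of Pde4d and of 0.73 to 2.49 for Pde10a.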

How the data were processed

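Signal intensities were read from the deposited scanner files of 12 two-colour rat arrays of 60-base probes, made with Agilent Feature Extraction 9.5.1.1 on design build rn3, per the file headers. Deposited log2 values of the same arrays, for which the submitters' processing notes name limma without a version, ran red over green and served as an alternative. The 8 genes, the gene lists and the tests were chosen with earlier results of these data known. Mean and background intensities were corrected by normexp (offset 50) and normalised by loess within each array with control spots at weight 0. Spots flagged as outliers were left out and the spots of a probe averaged (R 4.3.3, limma 3.58.1, with files read by version 1.17.8 of data.table).

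A probe entered the fit where, at some time, each of the 3 arrays had it well above background in green or red, and the 20630 such probes were tested with lmFit and eBayes on 4 group means (8 residual degrees of freedom) with Benjamini-Hochberg adjustment at 0.05. The reference is common to all arrays and counts as 1 control sample, so its own spread is not measured. A channel not well above background on any array of a time gives a bound ("at least"), from the lowest signal of a probe well above background. Where the probe's own signal in that channel was higher than this lowest signal, its own signal was used. A bound that rests on the probe's own signal on all 3 arrays equals the measured mean change. Named were all members and, per list, up to 4 genes with the largest called change at any time, from their brightest tested probe where a gene had several. Among the other phosphodiesterases and the Pde4d-like probes, further names were added after their values were seen. Names came from the files, or through RefSeq by accession (10735 probes), symbol (5571) or synonym (3729), and 20977 probes kept the file's name. Fits were tested on simulated data. Alternatives covered background, scaling, filter, probe choice, the replicate number as a block and each array left out. Same-numbered arrays, which share a slide, deviated together with r from 0.0586 to 0.4786 (over 0.1 in 14 of 18 pairs). Differently numbered arrays of different times had r from -0.3996 to 0.309 (over 0.1 in 10 of 36 pairs). The reported fit leaves this sharing out. With the number as a block, 6985 probes were called at 2 h, against 5632 as reported.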

Additional observations from a re-analysis of the deposited data

Results flagged for a closer look

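The changes of Pde4d and Pde10a differed between successive times of forskolin in 9 of the 12 steps tested by limma, each value being the later time minus the earlier. Over all tested probes 14.7%, 38% and 13.8% were called in the steps from 2 to 4, 4 to 24 and 24 to 48 h. From 2 to 4 h the steps were 0.91 on the catalytic-domain probe of Pde4d, 0.63 on its downstream probe, 0.74 on its chromosome 2 probe and 1.05 for Pde10a. From 4 to 24 h they were -0.62, -0.61 and -0.84 on the Pde4d probes in the same order. From 24 to 48 h they were -0.30 on the downstream probe of Pde4d and -0.36 for Pde10a, and both of these calls were lost with offset 0, processed signals, median centring or centring on the tested probes. The chromosome 2 probe passed the filter only through the forskolin channel at 2 and 4 h, so its steps counted here are not read as support. With 3 arrays per time, no sample was tested for standing apart from its group.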

How the results depend on the processing

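All 4 tested probes were called higher at 4 h under every alternative in which they were tested, with log2 changes of 1.21 to 3.07 on the catalytic-domain probe, 0.71 to 2.75 on the downstream probe and 0.75 to 3.07 on the chromosome 2 probe of Pde4d, and 0.73 to 2.49 for Pde10a. The count called between 24 and 48 h, 2 as reported, was 0 with a normexp offset of 0, processed signals, median centring, centring on the tested probes or only probes above background in both channels on all arrays, 1 with no filter or 1 probe per gene, and 0 to 2 with an array left out. The stricter filter kept only the catalytic-domain probe and so gave 1 in each other comparison. With 1 probe per gene the counts were 1 at 2 h, 2 at 4 h, 2 from 2 to 4 h, 1 from 4 to 24 h and 2 by the F test. Directions turned for Pde10a at 2 h with processed signals (-0.094) and with an array left out (-0.061 to 0.0924). They turned for the chromosome 2 probe at 48 h when centred on the tested probes (0.4076), an alternative chosen after seeing the data, and with an array left out (-0.0731 to 0.0126). With median centring Pde6d at 48 h was -0.46, Prkar1a at 24 h -0.48, Pkig at 4 h -0.30, Akap9 at 24 h -0.20 and Akap12 at 48 h -0.27, and when centred on the tested probes Pde6d was -0.0189 and Prkar1a -0.0494. Probes called in all at 2, 4, 24 and 48 h numbered 15691, 15845, 14779 and 15026 with median centring, 17016, 17109, 16412 and 16772 when centred on the tested probes, and 5632, 10068, 10682 and 11538 as reported. From 2 to 4, 4 to 24 and 24 to 48 h the counts were 383, 3700 and 297, then 1304, 5983 and 1354, and 3034, 7838 and 2842 as reported, with 78.4% of the calls from 4 to 24 h higher under median centring, against 52.5%. The cause of these changes was not tested. With the replicate number as a block, all 28 member values stayed on their side of the threshold, with 3, 4, 3 and 3 probes called at 2, 4, 24 and 48 h. Signal over background limits the chromosome 2 probe at 24 and 48 h and the downstream probe at 48 h. It gives no change for the 6 genes below detection. Calls of the chromosome 2 probe at 2 and 4 h, where it passed only through the forskolin channel, are not read as support.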
